A study of Mus musculus with 15 samples.

Results

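The comparison was of Purkinje cell translating RNA between postnatal day 21 (P21) and postnatal day 7 (P7), the interval in which these neurons build most of their dendritic tree and settle their synapses. The arrays were taken by their titled age alone: 3 arrays of P21 were set against 3 of P7, 6 of the 15 arrays of the series, across all 22092 probe sets. Every array came from Tg(Pcp2-L10a-Egfp) mice, so both ages carried the transgene, and age was the sole labelled difference. The transgene fuses green fluorescent protein to the ribosomal protein L10a under the Pcp2 promoter, which is active in Purkinje cells. Tagged ribosomes were captured with antibody-coated beads from homogenates of pooled cerebella, and the RNA they held was labelled and hybridised to Affymetrix arrays. The 3 P15 arrays lay between the compared ages and were used to place each change in time, and P0 and P56 values are given as context. Strain, sex and the number of cerebella per pool were not used here.

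Values are log2 signals, on which a difference of 1 is a 2-fold difference. Levels are listed in the order of replicates 1 to 3, a mean is given ± the SD of its 3 arrays, and a change with its standard error (SE) from limma. A gene was called where the Benjamini-Hochberg adjusted p of limma, over all probe sets, was under 0.05. "Rose" and "fell" are used for called genes, and for a count of members they mean higher or lower at P21. A signal under an array's lower quartile, which was 5.86 to 6.01, is not shown to be above background. Whether the arrays of an age stem from different pools is not stated, so the p-values measure the spread between these arrays, which may be technical. An exact permutation test of 3 against 3 arrays cannot go below p = 0.1, and effects of age and of any processing batch cannot be told apart.

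Purkinje cells are the output neurons of the cerebellar cortex. Parallel fibres, the axons of granule cells, contact the spines of their outer dendrites, while climbing fibres from the inferior olive first reach each Purkinje cell in number and are then pruned until a single strong one remains. Over the same weeks granule cell progenitors stop dividing, inhibitory interneurons form synapses on Purkinje cells, and oligodendrocytes wrap their axons in myelin.

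Purkinje cell identity was in place at both ages. Pcp2 itself read 13.18, 13.15 and 13.16 on the P7 arrays and 13.26, 13.20 and 13.20 on the P21 arrays, near the top of the scale, and was not called (change 0.06, SE 0.06, adjusted p 0.549). The mean of 21 measured Purkinje cell markers was 12.66 to 12.67 at P7 and 12.69 to 12.75 at P21. Rpl10a, the endogenous gene of the tagged ribosomal protein, which the arrays may not tell apart from the transgene, fell by 0.39 (SE 0.06, adjusted p 6.75e-05). P7 replicate 1 had the lowest list mean of its age for oligodendrocyte genes (9.23 against 9.37 and 9.39) and for brainstem neuron genes (6.63 against 6.79 and 6.79), and the highest for cell cycle genes (8.39 against 8.26 and 8.27). P21 replicate 3 had the highest of its age for oligodendrocyte genes (10.17 against 9.96 and 9.93) and brainstem neuron genes (7.43 against 7.19 and 7.23). Unlike for Purkinje cell markers, the same arrays were lowest and highest in several other lists. These were the GABA and glycine, interneuron, granule cell, ion channel, calcium, axon initial segment, vesicle release and activity-regulated lists. Interneuron means, for example, were 8.81 against 8.91 and 8.91 at P7. In P21 replicate 3 the interneuron mean was 9.36 against 9.16 and 9.14. Changes of the genes of all these lists therefore vary with which arrays are read.

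Across 19500 genes, each represented by its brightest probe set, 2646 were higher at P21 (13.6%) and 2534 were lower (13%), together 26.6% of genes. The median change of all genes was 0.02, and the median SE 0.09. The arrays of the 2 ages did not overlap for 43.9% of genes, with P21 above in 23.5% and below in 20.4%. The large changes ran mostly downwards. A fall of at least 1 was called for 232 genes (1.19%) and a rise of at least 1 for 67 (0.344%), and the changes of all genes ran from −3.87 to 1.40. Over all probe sets, 3018 were higher (13.7%) and 2910 lower (13.2%), with 150 rises (0.679%) and 255 falls (1.15%) of at least 1, but 78 of the 150 had no single gene symbol and held only 18 distinct sets of values. The 150 became 83 without P7 replicate 1 and 78 without P21 replicate 3.

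The lowest change was that of Islr2, a leucine-rich-repeat membrane protein of growing axons. Islr2 read 10.96, 10.76 and 10.90 at P7 and 6.69, 7.26 and 7.06 at P21. The 2 sets of arrays lay far apart, and the change was −3.87 (SE 0.12, adjusted p 8.1e-13). Dcx, which encodes the microtubule-binding doublecortin of migrating neurons, read 10.82, 10.66 and 10.58 at P7 and 7.51, 7.45 and 7.65 at P21. Dcx fell by 3.15 (SE 0.08, adjusted p 1.59e-13), with no overlap between ages. Nhlh1, a transcription factor of newborn neurons, fell by 3.23 from a P7 mean of 9.30 ± 0.15 to 6.07 ± 0.22. The 15 largest falls also held the cell cycle genes Ccna2, Mki67, Top2a and Plk1, the kinetochore gene Knl1, the corepressor gene Rcor2, the zinc finger gene Zmat4 and the actin-binding Marcksl1.

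Several of the deepest falls started from a P7 level above that at birth. The P0 arrays held another RNA mix, with a Purkinje cell marker mean of 9.66 against 12.66 to 12.67 on the P7 arrays, and with higher means of brainstem (7.89) and endothelial genes (8.97, against 7.22 to 7.26 at P7). A difference from P0 and this difference in makeup cannot be told apart. Tnnt1, a troponin T gene best known from slow muscle, fell by 2.97 (SE 0.10, adjusted p 1.16e-12), from 9.16 ± 0.18 at P7 to 6.19 ± 0.17 at P21, while its P0 mean was 5.90 ± 0.11. Itga5, the fibronectin receptor subunit, fell by 2.71, from 9.70 ± 0.19 to 6.99 ± 0.07, against 7.73 ± 0.18 at P0. Hspb1, a small heat shock protein, fell by 2.53, from 11.57 ± 0.11 to 9.04 ± 0.03, against 8.29 ± 0.06 at P0. Yeats2, a subunit of a histone acetyltransferase complex, was one of the brightest of these genes. It read 12.49, 12.41 and 12.37 at P7 and 10.04, 10.09 and 10.00 at P21, a change of −2.38 (SE 0.08, adjusted p 1.3e-12), and its P0 mean was 10.34 ± 0.01. Of the 232 genes that fell by at least 1, 86 had been called higher at P7 than at P0, 94 had been called lower, and 52 were not called between those ages.

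**Figure D1:**
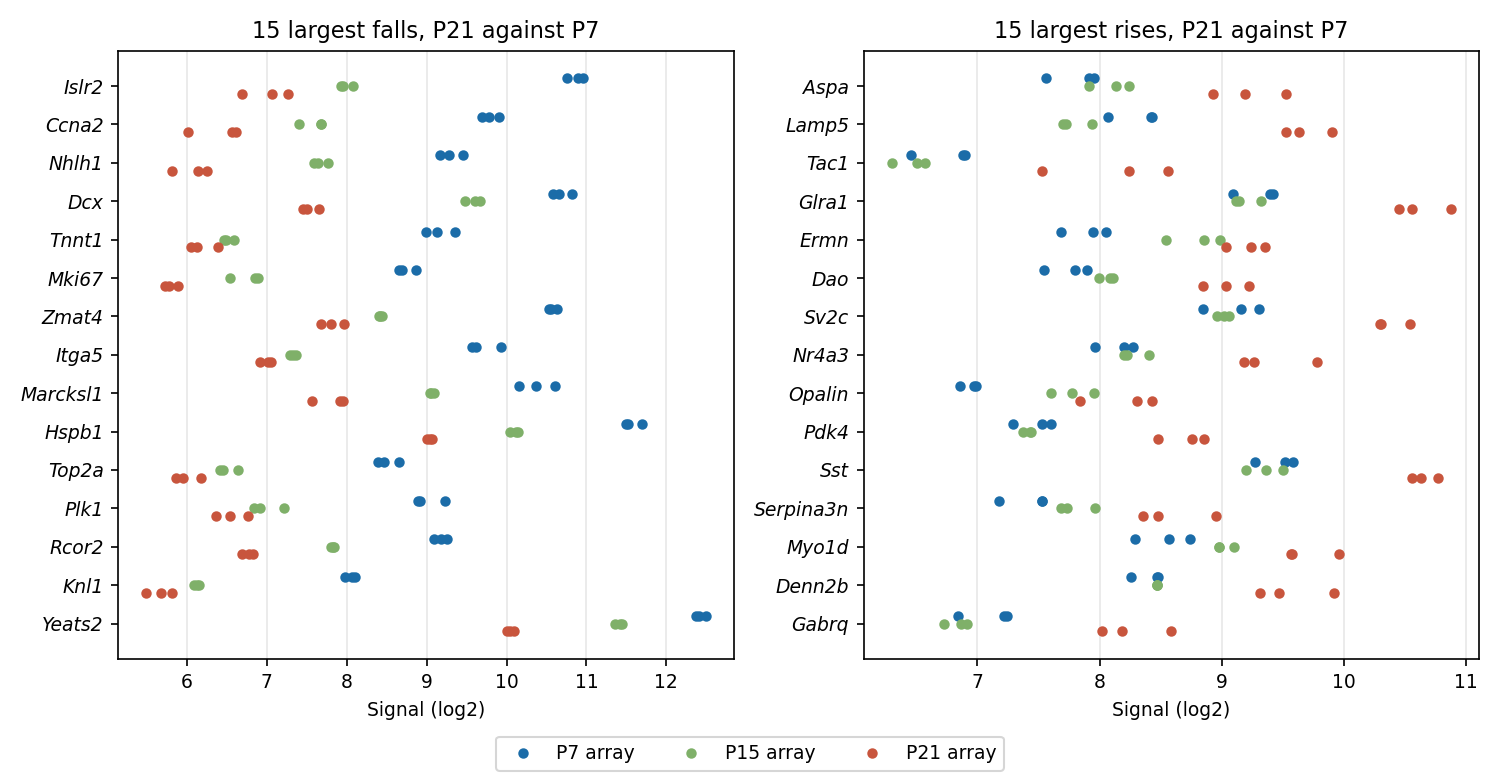
Log2 signal on each P7, P15 and P21 array (points) for the 15 genes with the largest falls (left) and the 15 with the largest rises (right) among called genes whose P7 and P21 arrays do not overlap. Islr2 starts at 10.76 to 10.96 on the P7 arrays and ends at 6.69 to 7.26 on the P21 arrays, and among the rises P15 points often lie with P7 points, as for Glra1 and Sst.

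Genes of immature neurites and their cytoskeleton fell as a group. Of 35 measured members, 25 were lower at P21, 2 were higher and 8 were not called, and the median change was −0.71 against 0.02 for all genes. Beside Dcx and Marcksl1, the leading members were Sox11 and Tubb2b. Sox11, a transcription factor of newly formed neurons, read 9.69, 9.50 and 9.34 at P7 and 7.57, 7.22 and 7.60 at P21, a change of −2.05 (SE 0.10, adjusted p 2.61e-10). Tubb2b, a beta-tubulin of young neurons, read 12.64, 12.51 and 12.50 at P7 and 10.57, 10.56 and 10.57 at P21, a change of −1.99 (SE 0.08, adjusted p 2.75e-11). Neither gene's arrays overlapped between ages. The 2 members that rose were Fez1, an adaptor of kinesin transport, by 0.58 (SE 0.12), and Stmn4, a tubulin-binding stathmin, by 0.34 (SE 0.08). The other stathmins did not move together with Stmn4: Stmn1 was lower by 0.26, and Stmn2 and Stmn3 were not called (changes of −0.11 and 0.00).

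A larger share of the cell cycle genes fell than in any other of the 33 lists. Of 34 measured members, limma called 31 lower and 0 higher, with 31 lower and 0 higher at an unadjusted p under 0.05, and the median change was −1.25. Ccna2, cyclin A2, read 9.91, 9.79 and 9.70 at P7 and 6.62, 6.01 and 6.57 at P21. Mki67, the proliferation antigen Ki-67, read 8.87, 8.65 and 8.69 at P7 and 5.77, 5.73 and 5.89 at P21. Both sets of arrays were widely separated, with changes of −3.40 (SE 0.14, adjusted p 1.79e-11) for Ccna2 and −2.94 (SE 0.09, adjusted p 1.16e-12) for Mki67. All 3 P21 values of Mki67 lay under the lower quartile of their arrays, so the size of its fall depends on the background of the array. Top2a, the topoisomerase of mitotic chromosomes, fell by 2.50 (SE 0.10) and Plk1, a mitotic kinase, by 2.46 (SE 0.14). The 3 members not called were Cdc20 (−0.18), Pcna (−0.08) and Ccne2 (0.21). Postmitotic Purkinje cells do not divide, and the dividing cells of the cerebellum at P7 are mainly granule cell progenitors and glia. The part of such cells in this signal was not tested. Without the dimmest 50% of probe sets, which removes many of these genes, 10 falls were counted, and with array weights 1 gene was higher.

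The start of Mki67 shows the sequence features that promoters of cell cycle genes are known for, and it is shown for that reason. The 250 bases before its start, at chr7:135716380-135716629 on the minus strand (RefSeq, GRCm38.p6), are printed 5′ to 3′ with capitals at each CCAAT or TTTGAA, on either strand.
Mki67: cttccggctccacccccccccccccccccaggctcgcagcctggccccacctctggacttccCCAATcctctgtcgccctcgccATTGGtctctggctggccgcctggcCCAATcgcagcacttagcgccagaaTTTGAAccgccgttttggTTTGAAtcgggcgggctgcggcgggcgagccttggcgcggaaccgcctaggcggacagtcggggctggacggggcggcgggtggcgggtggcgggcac
There are 5 matches, and they do not overlap. Over the called cell cycle genes with such a window (26 genes, 28 windows, since a gene can have several starts), CCAAT on either strand stood in 22 windows (78.6%), against 33.8% of all 32851 RefSeq windows of that length. The cell cycle homology motif, searched as TTTGAA or TTCGAA on both strands, stood in 9 of 28 (32.1%) against 17.1%. TTCGAA reads the same on both strands. A match is a description of these letters and not evidence of a bound factor.

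Genes of granule cell progenitors, the dividing cells of the external granule layer, moved the same way. Of 14 measured members, 10 were lower, 2 were higher and 2 did not pass, for a median of −1.18. Atoh1, the transcription factor that specifies this lineage, read 8.22, 8.04 and 8.08 at P7 and 5.82, 6.27 and 5.87 at P21, a change of −2.13 (SE 0.15, adjusted p 2.16e-08). Of the P21 values, 2 of 3 lay under the lower quartile. Without the dimmest 50% of probe sets, where members among them were not tested, the list had 6 falls and 1 rise. Mycn, which drives progenitor division, fell by 1.94 (SE 0.08) and Ccnd2, cyclin D2, fell by 1.82 (SE 0.07), each with P21 arrays well below P7 arrays. The 2 members that rose, Hhip by 0.65 and Ptch1 by 0.35, are both targets and inhibitors of Hedgehog signalling and are also read in other cells. The values of Gli1, a transcriptional effector of that pathway, differed by −0.21 and were not called. In these bulk samples, fewer cells of a type and less RNA per cell cannot be told apart.

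The rises had no gene as extreme as these falls. Beside the myelin, glycine receptor and vesicle genes described below, the 15 largest held Lamp5, Tac1, Dao, Pdk4, Serpina3n and Gabrq. Tac1, the precursor of substance P, rose by 1.37 (SE 0.18, adjusted p 2.61e-05), from 6.74 ± 0.25 at P7 to 8.11 ± 0.53 at P21, with a P15 mean of 6.46. Dao, the D-amino acid oxidase of hindbrain glia, rose by 1.29 (SE 0.11, adjusted p 2.92e-07), from 7.75 ± 0.18 to 9.04 ± 0.19. Gabrq, a GABA receptor subunit of monoamine neurons and other cells, rose by 1.16 (SE 0.15, adjusted p 1.80e-05), from 7.10 ± 0.23 to 8.26 ± 0.29.

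Genes of the oligodendrocyte lineage, myelin genes among them, rose in a larger share than those of any other of the 33 lists. Of 21 measured members of the oligodendrocyte lineage, 19 were higher at P21, 1 was lower and 1 was not called, and the median change was 0.75. Aspa, the aspartoacylase that supplies acetate for myelin lipids, had the largest rise of all genes. Aspa read 7.56, 7.91 and 7.96 at P7 and 9.19, 8.93 and 9.52 at P21. The ages did not overlap, with P7 replicate 1 lowest and P21 replicate 3 highest, and the change was 1.40 (SE 0.14, adjusted p 8.14e-07). Ermn, an actin-binding myelin protein, read 7.69, 7.94 and 8.05 at P7 and 9.24, 9.04 and 9.35 at P21, and rose by 1.32 (SE 0.13, adjusted p 1.21e-06). Opalin and Mal, both membrane proteins of the myelin sheath, rose by 1.25 and 1.14. Mbp, the main basic protein of myelin, was bright at P7 already (10.74 ± 0.04) and rose by 0.42 (SE 0.08). The member that fell was Pdgfra, the receptor of oligodendrocyte precursors, by 0.53 (SE 0.09, adjusted p 2.12e-04). The myelin genes named here thus rose while Pdgfra fell. The list also holds other genes of precursors and of the whole lineage, so Pdgfra alone does not give the course of precursor genes. The list mean went from 9.23 to 9.39 over the P7 arrays to 9.93 to 10.17 over the P21 arrays. What oligodendrocyte RNA contributes to the purified samples was not tested.

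Genes of mature granule cells rose as well. Of 23 measured members, 15 were higher, 2 were lower and 6 did not pass, for a median of 0.48. Calb2, the calcium buffer calretinin, read 10.67, 10.91 and 10.85 at P7 and 11.84, 11.75 and 12.11 at P21, a rise of 1.09 (SE 0.10, adjusted p 5.4e-07). Cbln3, which granule cells make as partner of the synapse organiser Cbln1, read 10.43, 10.71 and 10.77 at P7 and 11.61, 11.62 and 11.73 at P21, a rise of 1.02 (SE 0.09, adjusted p 2.84e-07). Gabra6, the GABA receptor subunit of granule cells, rose by 0.99 from 10.73 ± 0.14. The members that fell were the lineage factors Pax6, by 0.58, and Zic1, by 0.36. The list mean went from 10.35 to 10.46 over the P7 arrays to 10.77 to 10.95 over the P21 arrays. The part that granule cell RNA has in the other rises below was not tested.

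Receptors and transporters of inhibitory transmission were higher at P21 as a group. Of 24 measured members of the GABA and glycine list, 18 rose, 2 were lower and 4 were not called, and the median change was 0.37. Glra1, the adult alpha subunit of the glycine receptor, read 9.09, 9.39 and 9.42 at P7 and 10.56, 10.45 and 10.88 at P21. Every P21 array was more than 1 unit above every P7 array, and the rise was 1.33 (SE 0.13, adjusted p 6.24e-07). Glra2, the fetal subunit, went the other way with a change of −0.43 (SE 0.12, adjusted p 0.0143), a call lost without P7 replicate 1 (adjusted p 0.0501) or P21 replicate 2 (adjusted p 0.0856). Slc6a5, the neuronal glycine transporter that marks glycinergic cells, rose by 1.05 (SE 0.11). Gabra6 and Glra3, a further glycine receptor subunit, completed the leading rises, but Glra3 lay under the lower quartile on all P7 arrays. Slc12a5, the chloride exporter KCC2 that sets the polarity of GABA responses in mature neurons, rose by 0.33 (SE 0.08, adjusted p 0.00708), and Slc12a2, the importer NKCC1, by 0.47 (SE 0.09, adjusted p 5.18e-04). The enzymes that make GABA were flat or lower, with Gad1 not called (−0.11) and Gad2 lower by 0.21. Leaving out any P7 or P21 array other than P21 replicate 2 ended the call of Gad2, with adjusted p from 0.0661 to 0.165. The list had 0 falls without P7 replicate 1 and 1 fall without any other single P7 or P21 array.

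Markers of other neurons moved with these glycinergic genes. Of 19 measured genes of cerebellar interneurons, 12 rose and 1 fell (2 without P21 replicate 3), and the list mean went from 8.81 to 8.91 over the P7 arrays to 9.14 to 9.36 over the P21 arrays. Sst, the peptide somatostatin, read 9.27, 9.59 and 9.52 at P7 and 10.55, 10.63 and 10.77 at P21, a rise of 1.20 (SE 0.09, adjusted p 5e-08). Of 19 measured genes of brainstem and precerebellar neurons, limma called 14 higher and 0 lower, with 15 higher and 0 lower at an unadjusted p under 0.05. The list mean went from 6.63 to 6.79 at P7 to 7.19 to 7.43 at P21, with a P15 range of 6.71 to 6.74, a P0 mean of 7.89 and a P56 mean of 6.34. Tph2, the enzyme of serotonin synthesis, read 7.46, 7.86 and 7.90 at P7 and 8.86, 8.64 and 9.17 at P21, a rise of 1.14 (SE 0.14, adjusted p 7.05e-06). Slc18a2, the vesicular monoamine transporter, rose by 0.99, Ddc, which makes serotonin and dopamine from their precursors, by 0.93, and Dbh, which makes noradrenaline, by 0.91. Purkinje cells are not known as a source of these transmitters. The P15 values of these monoamine genes lay at or below their P7 values, for Tph2 at 7.70 ± 0.17. Without the dimmest 50% of probe sets, where members among them were not tested, 4 of the 14 calls were left. The part of these neurons in the other rises at P21 was not tested.

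**Figure D2:**
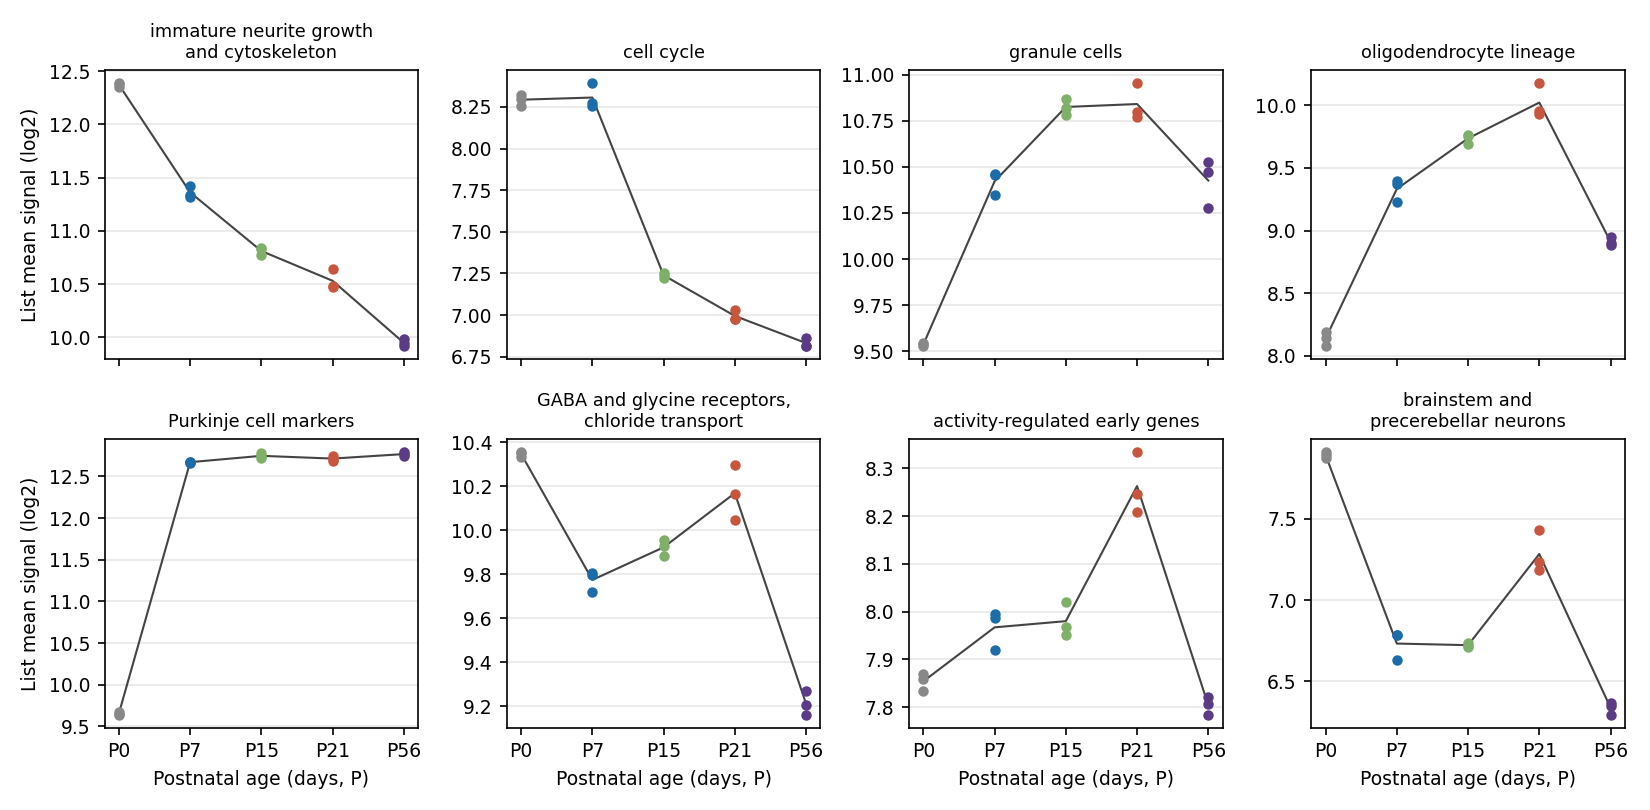
Mean log2 signal of the measured members of 8 gene lists on each array (points) with a line through the mean of each age (ages evenly spaced). Purkinje cell markers lie at 12.66 to 12.75 on all P7 and P21 arrays, cell cycle genes drop mostly before P15, and the activity-regulated and the brainstem lists are high at P21 against P7, P15 and P56.

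Genes of excitability rose in number but by less. Of 42 measured sodium, potassium and HCN channel genes, 23 were higher, 9 were lower and 10 did not pass, for a median of 0.24. Kcnc2, a fast potassium channel of the Kv3 family, read 6.62, 6.87 and 7.11 at P7 and 7.91, 7.76 and 8.21 at P21, a rise of 1.09 (SE 0.12, adjusted p 3.48e-06). Its P15 mean was 6.85 ± 0.11, against 6.87 ± 0.24 at P7. Scn4b, the sodium channel subunit that supports resurgent current in Purkinje cells, read 10.16, 10.39 and 10.40 at P7 and 11.34, 11.26 and 11.19 at P21, a rise of 0.95 (SE 0.11, adjusted p 4.86e-06). Kcnmb4, a subunit of BK channels, rose by 0.76 (SE 0.11) and Scn2a, an axonal sodium channel, by 0.71 (12 of its 13 other probe sets were called higher too). The falls included Kcnq5, a subunit of M-current channels, by 0.74, and Kcnq3, by 0.44.

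Calcium handling followed the channels. Of 37 measured calcium channels, pumps, stores and buffers, 19 rose, 3 fell and 15 did not pass, for a median of 0.21. Atp2b3, a plasma membrane calcium pump, read 9.95, 10.23 and 10.23 at P7 and 11.02, 11.03 and 11.23 at P21, a rise of 0.95 (SE 0.10, adjusted p 1.21e-06). Slc8a2 and Cacna1i, a sodium-calcium exchanger and a T-type channel, rose by 0.80 and 0.79. The falls were Cacnb1 by 0.78, Ocm, oncomodulin, by 0.46, and Hpca, the calcium sensor hippocalcin, by 0.24. The call of Hpca was lost without P21 replicate 3 (adjusted p 0.0648). The buffers for which Purkinje cells are known, Calb1 (−0.08, SE 0.08) and Pvalb (0.11, SE 0.07), were not called and read 13.29 to 13.59 on average at P21. Cacna1a, the P/Q-type channel of Purkinje cells, was not called either (0.16, SE 0.07, adjusted p 0.134).

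The axon initial segment and node list had 18 of 29 measured members higher, 3 lower and 8 not called, with a median of 0.29. Lgi3, a secreted leucine-rich protein, read 10.51, 10.84 and 10.77 at P7 and 11.61, 11.60 and 11.87 at P21, a rise of 0.98 (SE 0.09, adjusted p 6.7e-07). Sptbn1, a spectrin, rose by 0.72 (SE 0.08), with P7 values of 11.29, 11.54 and 11.57 and P21 values of 12.15, 12.10 and 12.31. Among neurofilaments, Nefl was not called (−0.04, SE 0.07) and Nefh fell by 0.24 (SE 0.07, adjusted p 0.01). The other falls were Kcnq3, an axonal potassium channel, by 0.44, and Cntnap1, the paranodal protein Caspr, by 0.30 (SE 0.10, adjusted p 0.0268). The call of Cntnap1 was lost without any single P7 array or without P21 replicate 1 or 2, with adjusted p from 0.056 to 0.103.

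Vesicle release genes had 18 of 33 measured members higher, 4 lower and 11 not called, with a median of 0.24. Sv2c, a vesicle glycoprotein, read 8.85, 9.30 and 9.16 at P7 and 10.31, 10.30 and 10.54 at P21, a rise of 1.28 (SE 0.12, adjusted p 5.4e-07). Unc13c, the priming factor Munc13-3 of cerebellar synapses, read 9.35, 9.68 and 9.62 at P7 and 10.59, 10.49 and 10.69 at P21, a rise of 1.04 (SE 0.09, adjusted p 2.53e-07). Slc17a7 and Slc17a6, the glutamate transporters of vesicles in granule cells and in olivary and other brainstem neurons, rose by 0.80 and 0.68. Purkinje cells release GABA, and these 2 transporter genes stand in the granule cell and brainstem lists as well. The falls were led by Cplx2, a complexin, which read 10.30, 10.25 and 10.34 at P7 and 9.07, 9.12 and 9.23 at P21 (−1.16, SE 0.07, adjusted p 1.33e-09). Stx1a, a syntaxin of the fusion complex, fell by 0.86 (SE 0.08). Members of the release machinery therefore moved in both directions with separated arrays.

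Activity-regulated early genes, whose transcription follows neuronal firing and calcium entry, had 12 of 24 measured members higher, 2 lower and 10 not called. The median change was 0.17. The rises were led by the 3 orphan nuclear receptors of the Nr4a family. Nr4a3 read 7.97, 8.28 and 8.20 at P7 and 9.27, 9.18 and 9.78 at P21, a rise of 1.26 (SE 0.13, adjusted p 1.82e-06). Nr4a2 read 9.01, 9.27 and 9.25 at P7 and 10.25, 10.15 and 10.35 at P21, a rise of 1.08 (SE 0.10, adjusted p 7.95e-07). Nr4a1 read 7.83, 8.16 and 8.19 at P7 and 9.07, 8.92 and 9.34 at P21, a rise of 1.05 (SE 0.13, adjusted p 8.28e-06). The ages did not overlap for any of the 3, and P7 replicate 1 was lowest in each. Npas4, a factor induced by synaptic activity, rose by 0.99 (SE 0.13). The 2 members that fell were Ier5, by 0.70, and Btg2, an antiproliferative gene of neural progenitors, by 0.63. Jun, Junb and Egr3 were not called, with changes of 0.06, 0.08 and 0.02. The list was thus split between the Nr4a genes, Fos, Arc and Npas4, which rose, and early genes that did not pass. Without the dimmest 50% of probe sets, where members among them were not tested, 4 rises and 0 falls were counted.

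The windows before the 3 Nr4a genes are shown because these genes moved together and because TGACG, the core of the site bound by CREB and related factors, recurs in them. They are the 250 bases before the start (RefSeq, GRCm38.p6) at chr15:101266596-101266845, plus strand (Nr4a1), chr2:57124004-57124253, minus strand (Nr4a2), and chr4:48045055-48045304, plus strand (Nr4a3). Each is printed 5′ to 3′ with TGACG, or its reverse complement CGTCA, in capitals.
Nr4a1: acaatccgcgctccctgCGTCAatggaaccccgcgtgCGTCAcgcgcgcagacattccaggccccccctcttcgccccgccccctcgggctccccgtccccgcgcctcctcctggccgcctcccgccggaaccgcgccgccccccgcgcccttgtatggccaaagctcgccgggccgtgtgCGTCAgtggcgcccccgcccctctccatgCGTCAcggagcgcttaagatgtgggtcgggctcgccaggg
Nr4a2: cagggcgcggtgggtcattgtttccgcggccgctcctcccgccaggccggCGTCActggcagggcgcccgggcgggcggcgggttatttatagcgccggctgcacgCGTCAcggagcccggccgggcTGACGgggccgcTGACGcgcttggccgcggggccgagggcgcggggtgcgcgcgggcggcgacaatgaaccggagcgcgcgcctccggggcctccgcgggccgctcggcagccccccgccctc
Nr4a3: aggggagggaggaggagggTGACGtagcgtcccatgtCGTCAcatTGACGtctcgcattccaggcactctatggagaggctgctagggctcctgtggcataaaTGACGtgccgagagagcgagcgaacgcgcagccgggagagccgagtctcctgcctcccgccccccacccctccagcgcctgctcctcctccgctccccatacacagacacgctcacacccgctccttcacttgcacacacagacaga
Each window held 4 matches. TGACG on either strand stood in 9 of 16 windows (56.2%) of the 10 called activity-regulated genes with such a window, against 17.8% of all 32851 windows. Counted by gene it stood in 9 of 10, against 5347 of 27025. The full palindrome TGACGTCA stood in 1 of the 16 windows of the called genes (6.25%), too few to set against the 1.55% of all windows. Its letters contain TGACG, so the counts are not separate. Here too a match describes the letters and is not evidence of a bound factor.

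For climbing fibre synapses, 24 genes known for elimination or maintenance were measured. Of these, 9 rose, 4 fell and 11 were not called, and the median change was 0.17. The shares were 37.5% higher and 16.7% lower, against 13.6% and 13% over all genes. Arc, which drives late elimination downstream of Purkinje cell activity, read 7.08, 7.47 and 7.35 at P7 and 7.91, 7.86 and 8.06 at P21. The ages did not overlap, and the rise was 0.64 (SE 0.10, adjusted p 7.73e-05). Bdnf, a neurotrophin, read 6.23, 6.20 and 6.37 at P7 and 6.51, 6.59 and 6.56 at P21, a rise of 0.29 (SE 0.07, adjusted p 0.00614) at a low signal. Ntrk2, its receptor TrkB, rose by 0.36 (SE 0.08, adjusted p 0.00225). The other rises, of Plxna4, Sort1, Igf1r, Grn, Nsf and Camk2a, were of 0.20 to 0.24. None of these 6 passed without P7 replicate 1, where their adjusted p ran from 0.0659 (Camk2a) to 0.118 (Igf1r), which left 3 rises, and 4 rises passed without P21 replicate 3.

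The 4 called falls of the climbing fibre genes were of secreted or surface signals. Their share, 16.7%, was near the 13% over all genes, so the count of falls does not set the list apart. Igf1, a growth factor known to act on climbing fibre inputs, read 10.68, 10.58 and 10.49 at P7 and 9.68, 9.68 and 9.74 at P21. The lowest P7 array was well above the highest P21 array, and the fall was 0.88 (SE 0.09, adjusted p 1.26e-06). Sema3a, a semaphorin that maintains climbing fibres, read 10.78, 10.70 and 10.64 at P7 and 10.15, 10.04 and 10.07 at P21, a change of −0.62 (SE 0.09, adjusted p 5.35e-05). Sema7a, the semaphorin that promotes elimination, read 12.24, 12.23 and 12.25 at P7 and 11.98, 11.99 and 11.89 at P21, a change of −0.29 (SE 0.07, adjusted p 0.00613). Plxnc1, a Sema7a receptor, was lower by 0.28 (SE 0.07, adjusted p 0.00502). Semaphorins with reported opposite roles on climbing fibres therefore fell together.

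Signalling genes of elimination within the Purkinje cell did not pass. Gnaq, the G protein of the metabotropic glutamate receptor route, changed by −0.05 (SE 0.06) and Plcb4, its phospholipase, by −0.13 (SE 0.06). Plcb4 was called lower with a trended prior (adjusted p 0.048). Cacna1a, Homer1 and Gad1 were also not called. Mef2d, a transcription factor gene, differed by 0.19 (SE 0.07, adjusted p 0.0531) and was called higher under 6 alternatives, such as the 6 arrays alone, with adjusted p from 0.0209 to 0.0405. Adgrb3, the Purkinje cell receptor for C1ql1, read 11.20, 11.31 and 11.22 at P7 and 11.33, 11.34 and 11.32 at P21, a difference of 0.09 (SE 0.07, adjusted p 0.391). C1ql1, the ligand that climbing fibres release, read 9.16, 9.13 and 9.13 at P7 and 8.67, 8.84 and 9.08 at P21. All 3 P21 values were lower, yet the change of −0.28 (SE 0.11, adjusted p 0.0757) was not called. It was called without P21 replicate 3 (adjusted p 0.0196), with array weights (adjusted p 0.00843) and without the dimmest 50% of probe sets (adjusted p 0.0463). The remaining members, Cdh2, Itgb1 and Nrp1, were not called in the main fit but were under some alternatives. With array weights Cdh2 (0.21, adjusted p 0.0185) and Itgb1 (0.20, adjusted p 0.0325) were higher. Nrp1 was lower there (−0.29, adjusted p 0.0398).

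**Figure D3:**
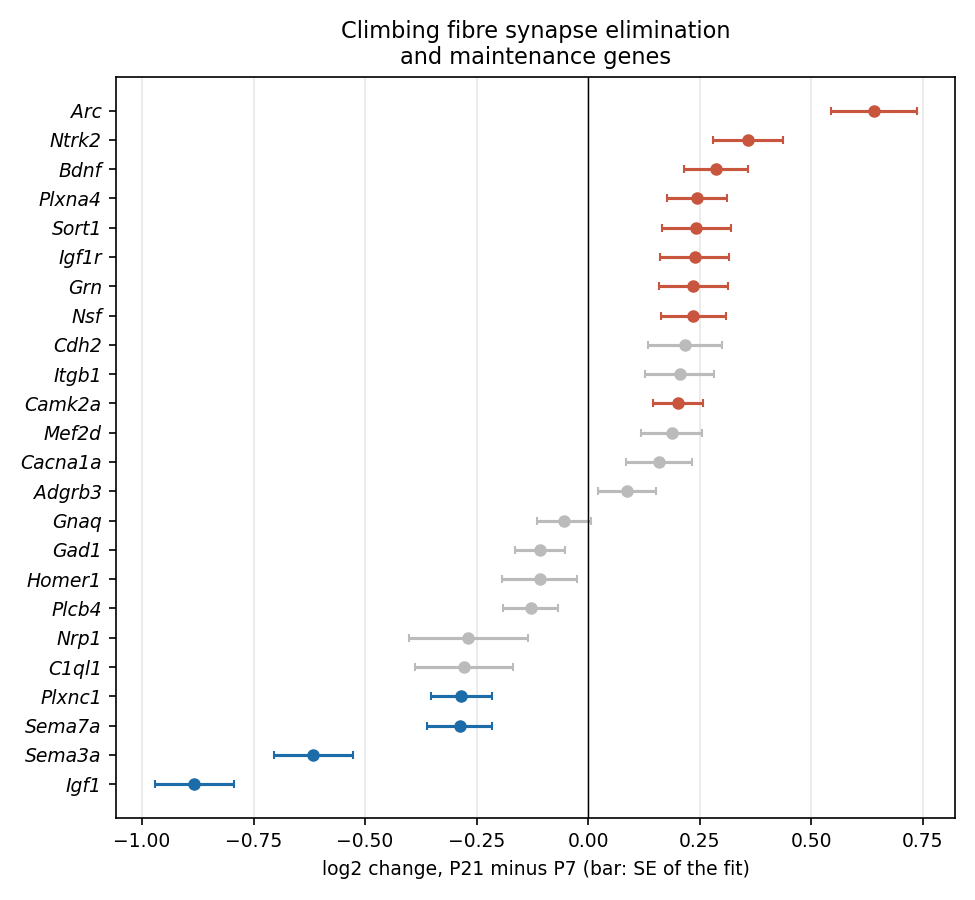
Log2 change from P7 to P21 (points, with the SE of the fit as bars) for the 24 measured genes of climbing fibre synapse elimination and maintenance, in red where called higher, blue where called lower and grey where not called. Igf1 (−0.88) and Sema3a (−0.62) lie lowest and Arc (0.64) highest, and the others apart from Ntrk2 (0.36) lie between −0.29 and 0.29.

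At parallel fibre synapses and their scaffold, 18 of 46 measured genes rose, 7 fell and 21 did not pass, for a median of 0.12. Beside Cbln3, the leading rise was Dlg1, the scaffold SAP97, which read 9.24, 9.61 and 9.47 at P7 and 10.34, 10.30 and 10.63 at P21 (0.98, SE 0.10, adjusted p 9.61e-07). Il1rap and Cbln2, both of the secreted or surface organisers, rose by 0.56 and 0.54. The fall of Homer2, a scaffold of metabotropic receptors, exceeded every rise of the list in size. Homer2 read 9.25, 9.09 and 9.12 at P7 and 7.88, 7.80 and 7.89 at P21, a change of −1.30 (SE 0.07, adjusted p 7.8e-10). Homer3, the form abundant in Purkinje cells, read 13.12, 13.12 and 13.14 at P7 and 13.28, 13.26 and 13.21 at P21 and was not called (0.12, SE 0.06, adjusted p 0.182). Shank1 (0.15) and Shank2 (0.13) were also not called. Cbln1, the granule cell ligand that binds the Purkinje cell delta receptor, rose by 0.32 (SE 0.07, adjusted p 0.0015) and stands in the granule cell list too.

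Genes of dendrite growth and branching showed no shared direction. Of 38 measured, 9 rose, 9 fell and 20 did not pass, for a median of 0.03. The rises were led by Fat3, an atypical cadherin that shapes dendrites, which read 8.59, 8.72 and 8.70 at P7 and 9.18, 9.13 and 9.44 at P21 (0.58, SE 0.09, adjusted p 6.4e-05). All 14 other probe sets of Fat3 had the same sign, and 3 of them were called. Sptan1, alpha-II spectrin, rose by 0.56 (SE 0.07). Nfia, a transcription factor of maturing cerebellar neurons and glia, read 11.25, 11.21 and 11.21 at P7 and 10.68, 10.67 and 10.75 at P21, a change of −0.53 (SE 0.08, adjusted p 7.98e-05). Kif4, a mitotic kinesin with a neuronal role, fell by 1.03, but all of its P7 and P21 values lay under the lower quartile. Mtss1, a membrane-bending protein that Purkinje cell dendrites need, was not called (−0.10, SE 0.06), and Rora, the orphan receptor that starts dendrite outgrowth, changed by −0.17 (SE 0.06, adjusted p 0.0386), a call lost under several alternatives, among them leaving out P7 replicate 1 (adjusted p 0.105).

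Regulators of spine actin were more divided by size. Of 43 measured, 14 rose, 5 fell and 24 did not pass, for a median of 0.10, yet the largest change was the fall of Kalrn. Kalrn, a guanine nucleotide exchange factor of spines, read 11.85, 11.76 and 11.79 at P7 and 10.27, 10.24 and 10.31 at P21. Arrays within an age differed by less than 0.1 while the ages differed by 1.53 (SE 0.07, adjusted p 9.92e-11). Rac3, a small GTPase of developing neurons, read 11.93, 11.76 and 11.77 at P7 and 10.79, 10.72 and 10.75 at P21, a change of −1.07 (SE 0.09, adjusted p 1.12e-07). Tiam2, an exchange factor for Rac, fell by 0.82 (SE 0.06) and Cttn, cortactin, by 0.67 (SE 0.09). Tiam1, the paralogue of Tiam2, rose by 0.81, and it also stands in the granule cell list. Ppp1r9a, neurabin, read 9.66, 10.06 and 9.98 at P7 and 10.81, 10.75 and 11.18 at P21, a rise of 1.01 (SE 0.11, adjusted p 2.85e-06). Rac1, Rhoa, Cdc42 and Cfl1, the general GTPases and cofilin, were not called, with changes between −0.04 and 0.03.

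Glutamate receptors and their auxiliary subunits had 11 of 35 measured genes higher, 11 lower and 13 not called. The NMDA receptor subunits moved apart. Grin2c, the subunit of mature granule cells, read 7.81 to 8.22 on the P7 arrays and 8.81 to 9.19 on the P21 arrays, a rise of 1.00 (SE 0.12, adjusted p 6.42e-06). Grin2a read 8.04, 8.16 and 8.12 at P7 and 8.91, 8.74 and 9.22 at P21, a rise of 0.85 (SE 0.10, adjusted p 1.1e-05). Grin2b, the early subunit, was lower by 0.49 (SE 0.14, adjusted p 0.0151), with 3 P21 values of 7.85, 7.56 and 8.07 under P7 values of 8.39, 8.26 and 8.31. Neto1, an auxiliary subunit of kainate receptors, fell by 1.24 (SE 0.12) and Cacng4, an AMPA receptor regulatory subunit, by 1.13 (SE 0.07). Cacng2, the form called stargazin that carries AMPA receptors in the cerebellum, read 12.65, 12.67 and 12.67 at P7 and 12.62, 12.60 and 12.66 at P21 and was not called (−0.04, SE 0.07). Grm4, the metabotropic receptor of parallel fibre endings, rose by 0.75 (SE 0.11).

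Guidance and adhesion genes were spread in both directions. Of 53 measured guidance ligands and receptors, 18 fell, 13 rose and 22 were not called, and the median, −0.02, was 0.01 where array medians were set to 0. Epha8, an ephrin receptor, fell by 0.93 (SE 0.07) and Dcc, the netrin receptor, by 0.83 (SE 0.11), while Sema3e rose by 0.73 (SE 0.09). Of 29 cadherins and protocadherins, 10 rose and 6 fell, from Cdh13 at −1.19 to Pcdh20 at 0.77. In the matrix around nerve cells, 9 of 27 measured genes rose, 5 fell and 13 were not called. Tnc, the glycoprotein tenascin C, read 8.84, 8.65 and 8.62 at P7 and 6.97, 6.92 and 7.13 at P21, a change of −1.70 (SE 0.12, adjusted p 3.09e-08). Hapln1, a link protein of perineuronal nets, read 6.40, 6.65 and 6.62 at P7 and 7.50, 7.34 and 7.69 at P21, a rise of 0.96 (SE 0.11, adjusted p 3.81e-06). Tnr, tenascin R, rose by 0.91 (SE 0.11), and Acan, the net proteoglycan aggrecan, by 0.55 (SE 0.07) at a low signal. Without the dimmest 50% of probe sets, where members among them were not tested, 5 rises of this list were counted. Beside Tnc, the leading falls were Nid1, of basement membranes, by 0.97, Ncan, the proteoglycan neurocan, by 0.82, and Has2, a hyaluronan synthase, by 0.69.

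Of 21 measured Purkinje cell markers, 16 were not called, 3 rose and 2 fell, and the median was 0.05. These shares, 14.3% higher and 9.52% lower, were near those over all genes, 13.6% and 13%. The counts therefore do not set the markers apart from other genes. Atp2a3, a calcium pump of the endoplasmic reticulum, read 12.12, 12.30 and 12.31 at P7 and 12.74, 12.72 and 12.75 at P21, a rise of 0.49 (SE 0.07, adjusted p 6.44e-05). Slc1a6, the glutamate transporter EAAT4, fell by 0.38 (SE 0.08), and Foxp2, a transcription factor, by 0.52 (SE 0.09). Car8 (0.04), Calb1 (−0.08), Pcp4 (−0.02) and Plcb3 (0.05) were not called. The rises numbered 5 with array medians set to 0, with array weights, with a trended prior and without the dimmest 50% of probe sets.

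Purkinje cell transcription factors fell more often than they rose, 10 against 5 of 24 measured, with 9 not called and a median of −0.14. Esrrb, an orphan nuclear receptor, led them. Esrrb read 10.63, 10.47 and 10.45 at P7 and 9.14, 9.16 and 9.08 at P21, a change of −1.39 (SE 0.09, adjusted p 7.39e-09). Ebf3 read 11.59, 11.52 and 11.58 at P7 and 10.57, 10.67 and 10.41 at P21, a change of −1.02 (SE 0.08, adjusted p 5.24e-08). Its relative Ebf2 fell by 0.45. The rises were led by Etv1, by 0.69 (SE 0.09), a gene also found in granule cells, and by Hes3 and Lhx5, which rose by 0.38 and 0.37. Without P7 replicate 1 the count of rises was 3.

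In metabotropic receptor and IP3 signalling, 19 of 27 measured genes were not called, 6 rose and 2 fell. The outstanding change was Mgll, the enzyme that degrades the endocannabinoid 2-arachidonoylglycerol. Mgll read 10.98, 10.81 and 10.82 at P7 and 9.58, 9.59 and 9.35 at P21, a change of −1.37 (SE 0.10, adjusted p 3.42e-08). Cnr1, the presynaptic cannabinoid receptor, rose by 0.51, and Dagla, which makes the ligand, was not called (0.10). Itpkb, an IP3 kinase, rose by 0.86 (SE 0.14) and Pde5a, a cyclic GMP phosphodiesterase of Purkinje cells, by 0.54 (SE 0.07). The enzyme and the receptor of the same lipid signal therefore moved in opposite directions.

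In the lists of metabolism, thyroid hormone and inherited ataxia, genes moved in both directions. Over all genes 13.6% were higher and 13% lower, and oxidative phosphorylation was near this, with 13% and 14.5%. The shares were 16.7% and 27.8% for cholesterol synthesis and 23.5% and 23.5% for thyroid hormone. For inherited ataxia they were 30.4% and 13%. Oxidative phosphorylation had 69 measured genes, of which 50 did not pass, 9 rose and 10 fell. The rises numbered 3 without P7 replicate 1, 4 without P7 replicate 3 and 5 without P7 replicate 2, P21 replicate 1 or P21 replicate 3, and the falls 5 without P7 replicate 1. Of 18 cholesterol synthesis genes, 3 rose (5 without P21 replicate 2) and 5 fell, from Pmvk at −0.42 to Msmo1 at 0.59. Of 17 thyroid hormone genes, 4 rose and 4 fell, led by Hr, a corepressor of the receptor, at 0.74 (SE 0.10) and the receptor gene Thra at −0.51 (SE 0.07). Without P7 replicate 1 the thyroid falls were 2. Klf9, a thyroid hormone target in Purkinje cells, was not called (0.07, SE 0.08). Of 23 measured genes of inherited ataxia, 7 rose, led by Syne1 at 0.65 (SE 0.09), 3 fell and 13 were not called, and 1 fall was left without P7 replicate 1, P7 replicate 3, P21 replicate 1 or P21 replicate 2.

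Among other cells, 12 of 24 measured genes of astrocytes and Bergmann glia rose, 5 fell and 7 were not called. Gjb6, a gap junction gene, rose by 0.98 while Fabp7, of radial and immature glia, fell by 0.99. The astrocyte list mean went from 9.80 to 9.90 over the P7 arrays to 10.06 to 10.14 over the P21 arrays. Of 18 microglia genes, 4 rose (22.2%) and 1 fell (5.56%) at list means of 6.48 to 6.65, and 1 rise was left without P7 replicate 1 or P21 replicate 3. Of 21 endothelial and mural genes, 3 rose (14.3%) and 5 fell (23.8%), and of 18 meningeal and choroid plexus genes, 3 rose (16.7%) and 1 fell (5.56%). Over all genes 13.6% were higher and 13% lower, so the shares of rises in these 2 lists were near the background. Of the red blood cell genes only Alas2 and Slc4a1 were measured, with changes of 0.50, a called rise, and 0.16. The part of these cells in the other results was not tested.

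The P15 arrays split the interval and showed that falls and rises ran on different schedules. Of the 232 genes that fell by at least 1, P15 was called below the midpoint of P7 and P21 in 159 and above it in 7. Most falls had thus passed the midpoint by P15. The midpoint is one of level, and P15 lies nearer to P21 than to P7 in days, so an even change would be past it by then. For these genes a median of 79% of the fall had taken place by P15 (quartiles 62.1% and 88.8%), and 164 read lower still at P56. Of the 67 genes that rose by at least 1, P15 was below the midpoint in 36 and above in 5, so most were still short of it. A median of 23.1% of the rise had taken place by P15 (quartiles −5.69% and 47.4%), in 22 genes P15 was under P7, and 43 read lower at P56 than at P7. The P56 counts carry an offset, since nothing was rescaled and array medians were 7.59 to 7.60 at P56 against 7.85 to 7.87 at P7. The P15 counts carry a smaller one, with array medians of 7.775 to 7.808 at P15 and 7.82 to 7.855 at P21. It moves P15 below the midpoint for falls and rises alike. Over all genes P15 was called below the midpoint in 11.9% and above it in 7.51%.

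Single genes show both schedules. Kalrn read 10.54, 10.50 and 10.51 at P15, so that −1.28 of its −1.53 came before P15. Dcx went against the majority of falls: its P15 values of 9.61, 9.48 and 9.66 lay above the midpoint (0.47, adjusted p 1.64e-04), with −1.10 to P15 and −2.05 after it, the later step the larger. Glra1 read 9.12, 9.14 and 9.32 at P15, no higher than at P7, and gained 1.44 between P15 and P21. Nr4a3 and Npas4 likewise changed by 0.13 and −0.08 to P15 and by 1.13 and 1.07 after it. Gabra6 and Etv1 took the other course, with 0.84 and 0.98 of change by P15 and 0.16 and −0.29 thereafter. Myelin genes lay between: Ermn changed by 0.90 and then by 0.41, and Mal by 0.37 and then by 0.77.

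By step, P15 against P7 gave 2296 probe sets higher (10.4%) and 3009 lower (13.6%), and P21 against P15 gave 2322 higher (10.5%) and 1581 lower (7.16%). As genes these were 10.5%, 13.8%, 10.5% and 6.93% of those tested, in the same order. Both steps use the P15 arrays, so they are given side by side only. With array medians set to 0 the splits were 3583 and 2178 for the first step and 1885 and 2226 for the second, so which direction was more frequent in a step depends on the centring. Against the midpoint, 1648 probe sets were above (7.46%) and 2566 below (11.6%), or 2795 and 1854 with medians set to 0. Without P15 replicate 1 the 1648 became 1011, and without P15 replicate 3 it became 881. Without the same arrays, falls of the second step numbered 994 and 990, and without P7 replicate 1 the rises of the first step numbered 1524.

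Some genes had their lowest or highest level at P15. Called against both neighbours, 747 genes were lower and 464 higher at P15, and 929 of these were not called between P7 and P21. Camkv, a kinase-like protein of synapses, read 8.60, 8.67 and 8.64 at P7, 7.55, 7.45 and 7.19 at P15 and 8.74, 8.82 and 9.06 at P21. Its P15 arrays lay 1.36 under the midpoint (adjusted p 1.97e-07), although P21 and P7 differed by only 0.24 (adjusted p 0.123). Egln3, an oxygen-sensing prolyl hydroxylase, had the deepest trough, with a P15 mean of 7.21 ± 0.28 between 8.96 ± 0.08 and 8.43 ± 0.42. Rasgrp2, an exchange factor for Rap, and Fscn1, the bundling protein fascin, were also lowest at P15. Lamp5, a lysosome-associated membrane protein of neurons, dipped to 7.79 ± 0.13 and rose from P7 to P21 by 1.38 (SE 0.12).

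The peaks at P15 were smaller. Malat1, a nuclear long non-coding RNA, read 11.16, 11.07 and 11.12 at P15 against a P7 mean of 10.18 ± 0.12, while its P21 arrays ranged from 9.52 to 10.72. P21 and P7 differed by −0.16 (SE 0.22, adjusted p 0.672), which turned to 0.08 without P21 replicate 2 and to −0.52 (adjusted p 0.0247) without P21 replicate 3. Cox7a1, a cytochrome oxidase subunit form, read 10.91, 10.97 and 10.98 at P7, 12.09, 12.05 and 12.05 at P15 and 11.40, 11.39 and 11.27 at P21. Its P15 arrays stood clear of both neighbours, 0.91 above the midpoint (adjusted p 8.13e-07), and P21 remained 0.40 above P7 (adjusted p 0.00144). Olfr1302 had the highest peak by size but read under 6.2 on all arrays.

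**Figure D4:**
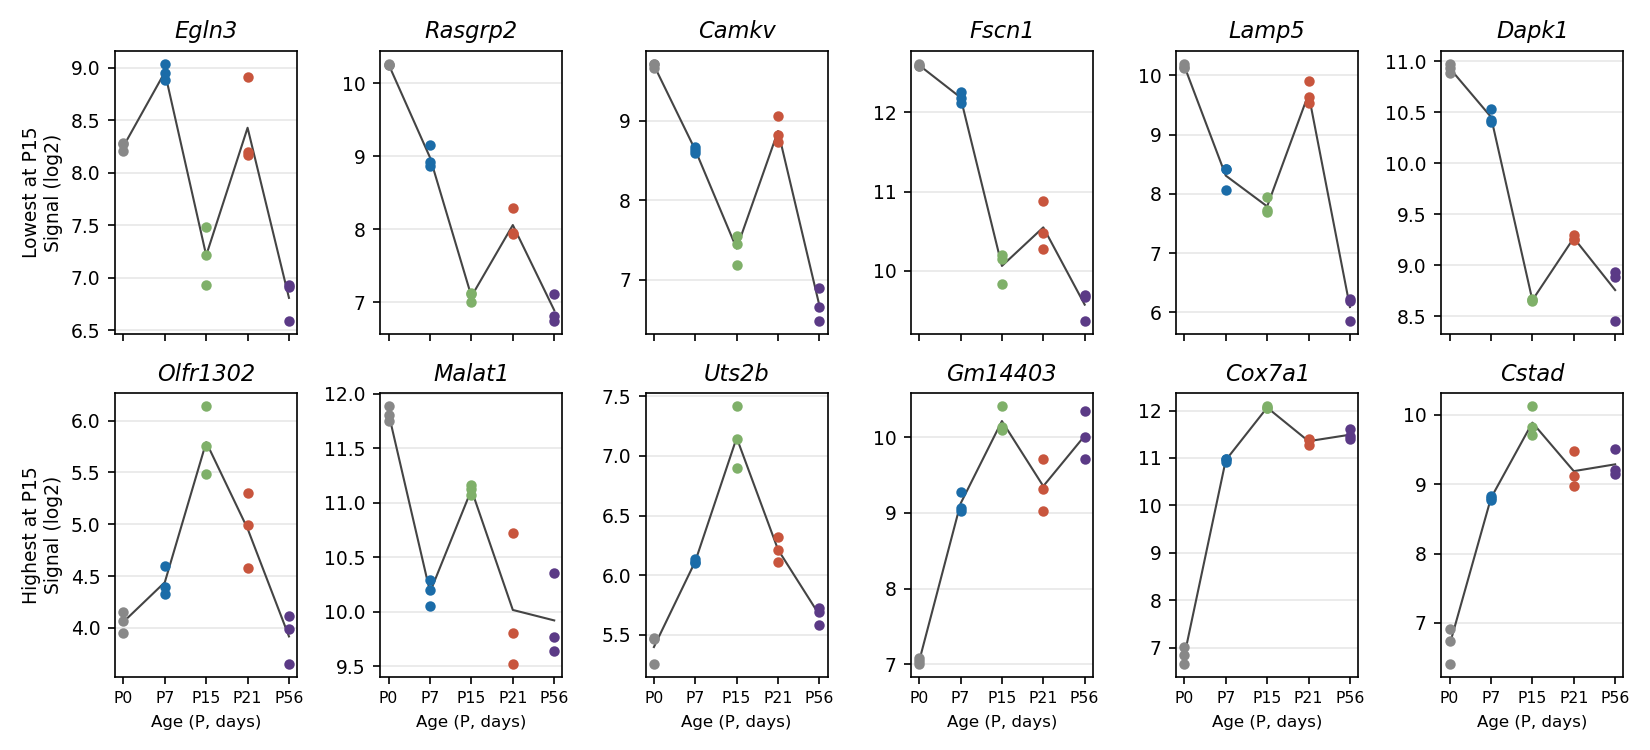
Log2 signal on each array (points) by age, with a line through the means, for the 6 genes lowest (top) and the 6 highest (bottom) at P15 against the mean of P7 and P21, among genes called against both ages; the axis of each panel has its own range. Camkv falls to 7.40 at P15 between 8.63 and 8.87, and Cox7a1 rises to 12.06 between 10.95 and 11.35.

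MicroRNA genes were mostly not readable on these arrays, whose probes see the precursor transcript and not the mature strand. Of 291 probe sets, 209 were under the lower quartile on all P7 and P21 arrays. The test called 6 of the 291 higher and 1 lower, while 26.8% of all probe sets were called in either direction. RefSeq gave mature sequences for 4 of these 7. Of the rises, Mir200b (means 5.04 at P7 and 5.23 at P21) and Mir103-1 (4.39 and 4.69) lay under the lower quartile. The call of Mir103-1 was lost without any single P7 array (adjusted p from 0.0574 to 0.168). The one that fell was Mir9-3, a source of miR-9, a microRNA of neural progenitors and young neurons. Its mature strands (RefSeq, GRCm38.p6, within chr7:79505279-79505339, plus strand) are shown because it was the sole fall, with the seed, bases 2 to 8, in capitals.
miR-9-5p: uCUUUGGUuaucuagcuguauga
miR-9-3p: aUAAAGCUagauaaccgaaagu
Mir9-3 read 6.90, 6.80 and 6.89 at P7 and 6.66, 6.45 and 6.19 at P21. The ages did not overlap, and the change was −0.43 (SE 0.09, adjusted p 0.00228) at a low signal. The largest rises were of 2 host transcripts, Mir670hg, by 0.95 (SE 0.12, adjusted p 1.14e-05), and Mir100hg, by 0.71 (SE 0.12, adjusted p 2.11e-04). Mir670hg read 7.03, 7.04 and 7.04 at P7, 8.36, 8.24 and 8.60 at P15 and 7.85, 7.83 and 8.29 at P21, so it was highest at P15. Mir30d rose by 0.36 (SE 0.11, adjusted p 0.021), a call lost without P7 replicate 1 (adjusted p 0.0695), P7 replicate 2 (adjusted p 0.0773) or P21 replicate 2 (adjusted p 0.0865).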

How the data were processed

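The authors deposited 1 log2 signal for each probe set and array, and the submitters' processing notes name Affymetrix Power Tools. Sources used here do not state the summary algorithm or software version, how background was handled, any centring, or which log base applies. Base 2 was taken because all values lie between 3 and 15. The file gives no depth, so the number of arrays limits the precision.

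Nothing was rescaled or filtered, and 0 columns lay outside the 15 arrays. The annotation (year 2016) gave 1 symbol to 20996 of 22092 probe sets, several to 91 and did not list 1005. Each of 19500 genes was represented by its brightest probe set, averaged across ages. All 15 arrays were fitted with limma 3.58.1 in R 4.3.3, with 1 mean per age, without covariates (10 residual and 6.5 prior degrees of freedom). Contrasts were P21 minus P7, P15 minus the mean of both, and the 2 steps. Tests were two-sided, adjusted by Benjamini-Hochberg over all probe sets, and checked on simulated data.

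The genes, 33 lists and tests were chosen with earlier results of these data known. The rule named the 15 largest rises and falls without overlap between ages (passing over predicted genes and olfactory receptors), up to 4 called members per list and direction, the whole climbing fibre list, 6 troughs and 6 peaks at P15, Pcp2, Rpl10a and up to 4 microRNA genes per direction. Members outside it are given as examples of genes that did not pass, or were chosen after their values were seen (Stmn1, Slc12a5, Slc12a2, Fos, Cbln1, Grin2b and Ebf2). Of 912 list genes 845 were measured. Tried as alternatives were array medians set to 0, quantile normalization, the 6 arrays alone, a replicate block, array weights, another prior, no dim probe sets, other rules for several probe sets, another minimum change and leaving out each array. Sequences are RefSeq (GRCm38.p6), matched by symbol. Figures were drawn with matplotlib 3.10.9.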

Additional observations from a re-analysis of the deposited data

How the results depend on the processing

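With every value on one scale and 3 arrays per age, small changes limit these results more than large ones. Simulated data for P21 against P7 had 50 probe sets shifted at each size and 21892 not shifted. There the test found 16% of shifts of 0.25, 74% of 0.5 and 100% of 1. In the data 26.8% of probe sets were called, so the adjustment was less strict than in the simulation. The simulated shares are thus no measure of the share of small changes found here. Genes under the lower quartile have no shown distance from background. Counts of called probe sets kept within 1.5 times of the main ones under quantile normalization, the 6 arrays alone, array weights and a trended prior.

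Of 267 results for single named genes, 226 kept their call and direction under all alternatives run. Over 3965 such values, 130 lost the call, 32 gained it and 1 reversed: Malat1 at 0.0839 without P21 replicate 2 (lowest when leaving out single arrays −0.515). Of 870 other list counts, 44 moved by over 1.5 times. Rises of at least 1 numbered 67 with 1 probe set per gene, 64 with the mean of a gene's probe sets, 905 at a minimum of 0.5, and 78 to 186 when single arrays were left out. Falls of at least 1 numbered 140 without the dimmest 50% of probe sets and 1036 at 0.5, and 238 to 272 with arrays left out. With array medians set to 0, 2795 probe sets were above the midpoint at P15 and 3583 were higher at P15 than P7. Leaving out single arrays gave 881 to 1772, 1524 to 2415 and, for falls from P15 to P21, 990 to 1644. Without the dimmest 50% of probe sets, which tests fewer genes, 4 activity-regulated genes were higher, 10 cell cycle and 6 granule progenitor genes lower and 4 brainstem genes higher. For the other differences the cause was not tested.

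The replicate numbers were not taken to pair the arrays: same-number correlations of deviations were 0.119, −0.081 and 0 for P7 and P21, 0.049, −0.079 and −0.006 for P7 and P15, and 0.334, 0.453 and 0.016 for P15 and P21, where other numbers gave −0.423 to 0.163. With the number as a block, 2970 probe sets were higher and 2865 lower, 150 and 255 by at least 1, and P15 lay above the midpoint in 1597 and below it in 2484. Rora, Ppp2r2b, Gad2 and Mir103-1 were then not called (adjusted p 0.0518, 0.0541, 0.0551 and 0.0662).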
